A study of Drosophila melanogaster with 9 samples.

Results

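The 4 genes Mtk, Def, Drs and DptB encode antimicrobial peptides, small secreted proteins that kill bacteria and fungi. They were taken from the table of probe set values by platform gene symbol. Each was carried by 1 probe set, giving 4 of the 11981 genes that a probe set names alone and 4 of the 18952 probe sets in the table, and no probe set that named several genes held a member. All 4 passed the filter on low values, under which at least 3 of the 9 arrays had to reach log2 4, and so stood among the 8822 features tested. The files identify them as Mtk (CG8175), Def (CG1385), Drs (CG10810) and DptB (CG10794).

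RNA abundance was read on Affymetrix Drosophila Genome 2.0 arrays, which cover each gene with a set of short probes. All flies were females of Canton-S, a standard wild-type laboratory strain, and all were 10 days old. The 3 groups differed in food: normal diet, restricted diet, or normal diet plus resveratrol, a polyphenol found in plants, with 3 biological replicates each. Every array received RNA from the heads and thoraces of a pool of at least 75 females. The sources used here do not give the composition of the diets, the dose of resveratrol or any exposure of the flies to microbes. The labels do not say whether the replicates of a diet were reared separately, so p-values measure the spread between these pools. In such bulk RNA a lower level can mean fewer cells of a type or less RNA per cell, and these cannot be told apart.

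In the fly, antimicrobial peptides are made mainly by the fat body, the counterpart of liver and adipose tissue, and also by epithelia and blood cells. Peptidoglycan of Gram-negative type acts through the Imd pathway and its transcription factor Relish (Rel). Fungi and many Gram-positive bacteria act through the Toll pathway and the transcription factors Dif and Dorsal (dl). The genes are kept low in unchallenged flies and can be induced many-fold within hours of an infection. Diptericin B (DptB) is a classical Imd target active against Gram-negative bacteria, and Drosomycin (Drs) is an antifungal peptide best known as a Toll target. Metchnikowin (Mtk) acts against fungi and bacteria and is induced through both pathways. Defensin (Def) acts mainly against Gram-positive bacteria.

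The values are log2 units, so that 1 unit is a doubling, and levels of different genes are not set against each other because probe sets differ in brightness. DptB read 6.92, 13.32 and 9.29 on the normal-diet replicates 1, 2 and 3. It read 11.76, 6.74 and 7.42 on the restricted-diet replicates and 8.74, 8.12 and 9.91 on the resveratrol replicates. Normal-diet replicate 2 and restricted-diet replicate 1 stood above every other array, and the 3 diets overlapped. Within a diet the highest array exceeded the lowest 84.7-fold on the normal diet, 32.4-fold on the restricted diet and 3.45-fold with resveratrol. On the normal and the restricted diet DptB thus varied far more among pools than its diet means differed.

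Drs read 10.79, 14.38 and 10.99 on the normal diet, 12.96, 10.93 and 10.71 on the restricted diet, and 10.99, 11.29 and 11.01 with resveratrol. The same 2 arrays stood apart, while the other 7 lay between 10.71 and 11.29. Highest over lowest was 12.1-fold on the normal diet, 4.73-fold on the restricted diet and 1.23-fold with resveratrol.

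Mtk read 10.89, 14.57 and 13.88 on the normal diet. Its restricted-diet values were 13.99, 11.28 and 10.95, and with resveratrol it read 10.75, 12.44 and 12.96. Normal-diet replicate 2 was again the highest and restricted-diet replicate 1 came next, but Mtk was also high on normal-diet replicate 3, where DptB was intermediate and Drs was low. The fold between the highest and the lowest array was 12.8 on the normal diet, 8.24 under restriction and 4.63 with resveratrol.

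Def read 7.76, 11.24 and 8.05 on the normal diet, 9.84, 9.18 and 9.85 on the restricted diet, and 10.75, 8.45 and 8.05 with resveratrol. It shared the peak on normal-diet replicate 2, but its next highest array was resveratrol replicate 1, which was the lowest of the 9 for Mtk. On the restricted diet its values lay within 1.59-fold of each other, against 11.2-fold on the normal diet and 6.49-fold with resveratrol. The plot of the 4 genes by array shows how the high arrays fall.

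**Figure D1:**
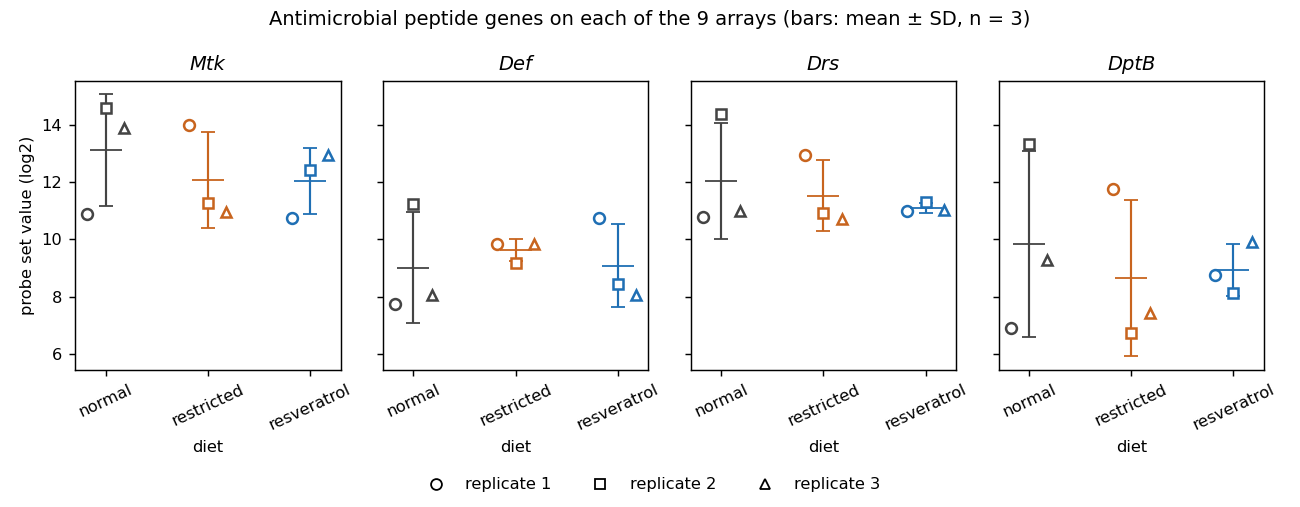
Probe set value (log2, vertical axis) of Mtk, Def, Drs and DptB on each array, by diet (horizontal axis); symbols mark the replicate, and bars the mean ± SD of the 3 arrays of a diet. Normal-diet replicate 2 is the highest array in all 4 panels, at 14.57, 11.24, 14.38 and 13.32, and every diet overlaps the others.

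The comparison of restricted with normal diet asks whether transcripts differ when food is restricted. No difference in the 4 peptide genes exceeded the spread between replicates. DptB averaged 9.84 ± 3.24 on the normal diet and 8.64 ± 2.72 on the restricted diet (SD, n = 3), a difference of -1.21 with a 95% interval of -5.35 to 2.93 (limma adjusted p = 0.646). Drs averaged 12.05 ± 2.02 and 11.53 ± 1.24, a difference of -0.52 with an interval of -2.80 to 1.76 (limma adjusted p = 0.72). Mtk averaged 13.11 ± 1.96 and 12.07 ± 1.67, a difference of -1.04 with an interval of -3.74 to 1.66 (limma adjusted p = 0.534). These 3 means were lower on the restricted diet, but the intervals reach from a fall of several units to a rise. Def averaged 9.01 ± 1.93 and 9.63 ± 0.38, a difference of 0.61 with an interval of -1.73 to 2.96 (limma adjusted p = 0.681). In exact permutation tests of the 3 against 3 values, two-sided, p was 0.6 for DptB, Drs and Def and 0.7 for Mtk, where the smallest p this design allows is 0.1.

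With limma, 0 of the 4 genes passed at an adjusted p under 0.05, and 0 of the 4 had an unadjusted p under 0.05. Of all 8822 features, 1604 passed (18.2%), with 465 higher on the restricted diet (5.27%) and 1139 lower (12.9%), and 3329 had an unadjusted p under 0.05. The 3 arrays of each diet separated without overlap for 44.8% of the features (3952) and for 0 of the 4 genes. The median difference of the 4 genes was -0.78, beside -0.05 over all features. The direction of 3 of the differences rested on a single array. Without normal-diet replicate 2 the difference was 0.53 for DptB and 0.65 for Drs, and without normal-diet replicate 1 it was -0.02 for Def. For Mtk it stayed below 0, from -2.15 without normal-diet replicate 1 to -0.31 without normal-diet replicate 2. The number of features called also rested on single arrays. With normal-diet replicate 1 left out it was 332, and with normal-diet replicate 2 left out 502. With restricted-diet replicate 1 left out it was 517, with restricted-diet replicate 3 left out 725, and with resveratrol replicate 2 left out 1039.

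The comparison of resveratrol with the normal diet addresses the effect of the added compound. This comparison shares its 3 normal-diet arrays with the last one, so the differences below are not a second sample. DptB averaged 8.93 ± 0.91 with resveratrol (SD, n = 3), a difference of -0.92 with a 95% interval of -5.06 to 3.22 (limma adjusted p = 0.907). Drs averaged 11.10 ± 0.17, a difference of -0.95 with an interval of -3.23 to 1.32 (limma adjusted p = 0.817). Mtk averaged 12.05 ± 1.16, a difference of -1.06 with an interval of -3.76 to 1.64 (limma adjusted p = 0.83). The resveratrol arrays lay inside the range of the normal-diet arrays for DptB and Drs, and for Mtk resveratrol replicate 1 lay just below it. Def averaged 9.08 ± 1.46, a difference of 0.07 with an interval of -2.28 to 2.41 (limma adjusted p = 0.992). Two-sided exact permutation p was 0.8 for DptB, 1.0 for Drs, 0.4 for Mtk and 0.9 for Def.

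Again 0 of the 4 genes passed in limma, and 0 had an unadjusted p under 0.05. Few features passed at all: 20 of 8822 (0.227%), with 4 higher with resveratrol (0.0453%) and 16 lower (0.181%), while 859 had an unadjusted p under 0.05. The diets separated without overlap for 15.4% of the features and for 0 of the 4 genes. The median difference of the 4 genes was -0.94, beside -0.01 over all features. Without normal-diet replicate 2 the difference was 0.82 for DptB and 0.21 for Drs. For Def it was -0.56 with normal-diet replicate 1 left out, -0.41 with normal-diet replicate 3 left out and -0.76 with resveratrol replicate 1 left out. For Mtk it ran from -2.17 without normal-diet replicate 1 to -0.33 without normal-diet replicate 2. The count of 20 features fell to between 2 and 9 when any 1 of the 9 arrays was left out.

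The restricted diet was also set directly against resveratrol, using the same arrays as above. The difference was -0.29 for DptB, with a 95% interval of -4.43 to 3.85 (limma adjusted p = 0.927). It was 0.43 for Drs, from -1.84 to 2.71 (limma adjusted p = 0.794), and 0.02 for Mtk, from -2.68 to 2.72 (limma adjusted p = 0.992). For Def it was 0.54, from -1.80 to 2.89 (limma adjusted p = 0.748). None of these differences passed, and none had an unadjusted p under 0.05. Two-sided exact permutation p was 0.9 for DptB, 1.0 for Drs and Mtk, and 0.6 for Def.

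Among all features, limma called 224 (2.54%), of which 40 were higher on the restricted diet (0.453%) and 184 lower (2.09%), and 2219 had an unadjusted p under 0.05. After quantile normalization 36 passed, 20 of them higher, and with arrays centred on the median 20 passed, 13 of them higher, so that this split depended on the scaling. The diets separated without overlap for 31% of the features and for 0 of the 4 genes, whose median difference was 0.23 beside -0.04 over all features. The difference for Mtk was -0.94 without restricted-diet replicate 1, and it was -0.63 when resveratrol replicate 1 was left out. For Drs it was -0.28 without restricted-diet replicate 1. For DptB it was 0.66 with restricted-diet replicate 2 left out, 0.32 with restricted-diet replicate 3 left out and 0.20 with resveratrol replicate 3 left out. For Def it ran from 0.03 with resveratrol replicate 3 left out to 1.38 with resveratrol replicate 1 left out. The count of 224 was at most 82 without normal-diet replicate 1 or without any 1 of the restricted-diet or resveratrol arrays. A p above the threshold does not show that the diets gave equal levels: the intervals in the plot of diet differences leave room for several-fold changes either way.

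**Figure D2:**
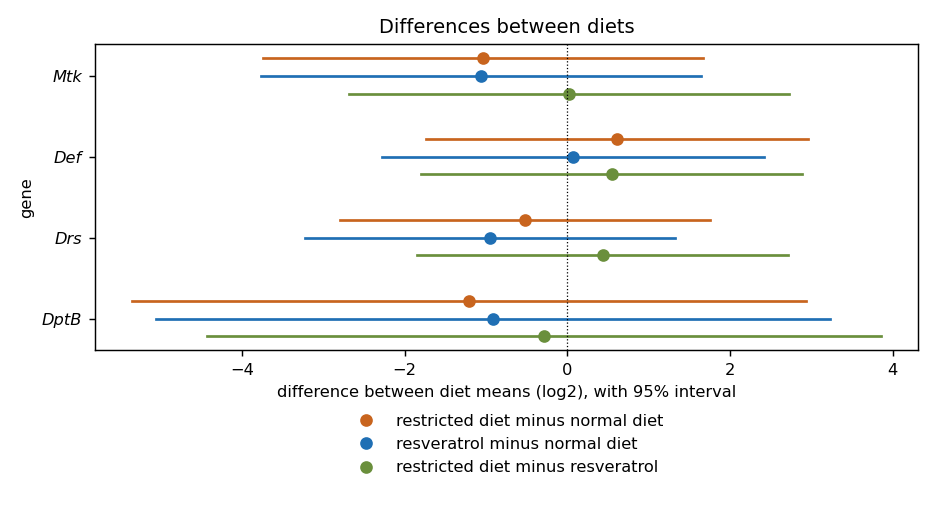
Difference between diet means (log2, horizontal axis) for each gene (vertical axis) in the 3 comparisons; points are the estimates and lines their 95% intervals from limma. Every interval crosses 0, and those of DptB are the widest, from -5.35 to 2.93 for the restricted diet minus the normal diet.

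The 4 genes were among the most variable on these arrays when diet is set aside. The SD within diets was 2.50 for DptB, rank 14 of 8822 features from the most variable. It was 1.63 for Mtk (rank 62), 1.41 for Def (rank 89) and 1.37 for Drs (rank 98). The median feature had an SD of 0.12, and 170 features (1.93%) exceeded 1. The share of the variance over the 9 arrays that lay between diet means was 12.2% for Mtk, 10.8% for Drs, 5.99% for DptB and 5.32% for Def. The median over all features was 45.1%. Some such share arises even without a diet effect, because 3 means are fitted to 9 arrays. Without normal-diet replicate 2 the SD fell to 0.79 for Drs, while it was 1.96 for DptB, 1.59 for Mtk and 0.96 for Def.

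**Figure D3:**
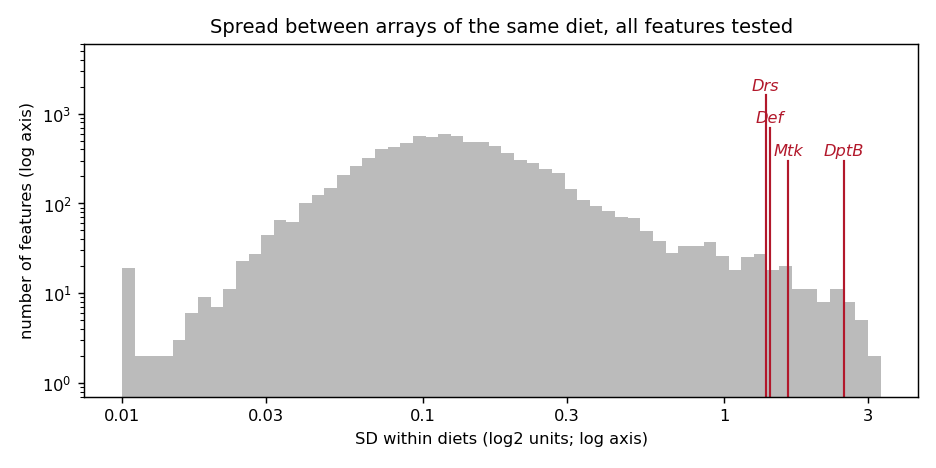
Number of features (vertical, log axis) by their SD between arrays of the same diet (horizontal, log axis, log2 units) over all 8822 features; the leftmost bar also holds every feature with a smaller SD. Red lines mark Drs at 1.37, Def at 1.41, Mtk at 1.63 and DptB at 2.50, all in the right tail, against a median of 0.12.

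Few features stood as far above their diet mates on normal-diet replicate 2 as the 4 peptide genes did. On that array 26 of 8822 features (0.295%) lay at least 2 log2 units above the mean of the other 2 normal-diet arrays, and all 4 peptide genes were among them, DptB by 5.22, Drs by 3.50, Def by 3.34 and Mtk by 2.19. On restricted-diet replicate 1 the same held for 37 features (0.419%), among them DptB by 4.68, Mtk by 2.88 and Drs by 2.13, while Def stood 0.32 above. On resveratrol replicate 1 it held for 75 features (0.85%), among them Def by 2.50. On the other 6 arrays 0 of the 4 genes reached this margin. Normal-diet replicate 2 was the highest of the 9 arrays for all 4 genes and for 1549 of all features (17.6%).

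Of the features past this margin, 15 were shared by normal-diet replicate 2 and restricted-diet replicate 1, which is 57.7% of the first array's and 40.5% of the second's. Besides DptB, Drs and Mtk these were 7 genes of the eggshell, 4 probe sets that name no gene and CG13083. Eggshell genes are made in ovarian follicle cells, and the list used for them was drawn up after their values were seen. Of 17 listed chorion, vitelline membrane and related genes, 11 were measured, and 7 of them lay at least 2 units above on normal-diet replicate 2 and 11 on restricted-diet replicate 1. The eggshell mean was 8.26 and 10.31 on these 2 arrays. It was 9.72 on resveratrol replicate 1, where Def was high and Mtk at its lowest, 8.77 on resveratrol replicate 2, 7.43 on restricted-diet replicate 3 and between 5.52 and 7.10 on the other 4. Of the 11 genes, 4 were highest on restricted-diet replicate 1, 4 on resveratrol replicate 1 and 3 on resveratrol replicate 2. The part of eggshell transcripts in the peptide values was not tested. The stress genes Hsp27 and GstD2 also exceeded the margin on normal-diet replicate 2, by 2.01 and 2.39, and were picked after their values were seen. A probe set naming Hsp70Aa and Hsp70Ab did so there by 2.47. One naming Hsp70Bb, Hsp70Bc and CG31343 did so on normal-diet replicate 3 instead, by 3.77, where no peptide gene reached the margin.

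Means over fat body and hemocyte markers were not at their highest on either of the 2 arrays. The mean over 7 measured fat body genes was 12.23 on normal-diet replicate 2, the lowest of the 9, and 13.19 on restricted-diet replicate 1, within a range of 12.23 to 13.27. On normal-diet replicate 2 Lsp2 (9.59) and CG5966 (9.65) lay below both other normal-diet arrays, as did fit (14.62) and CG7203 (11.94) by less. There apolpp (15.69) lay above both, and FASN1 (15.12) and Obp99b (8.97) lay between them, so the markers did not move together. The mean over 9 hemocyte genes was 8.93 and 8.56 on the 2 arrays, within 8.56 to 9.18. In limma 0 of the 9 passed in any comparison, with 1 of them at an unadjusted p under 0.05 in each. The hemocyte markers He and PPO3 lay near the floor of the values on every array, at most at 2.86 and 2.12. The midgut mean was 10.46 and 11.53, the lowest and the highest of the 9. The germline mean was 6.16 and 8.71, within 5.86 to 8.71, with vas at most at 2.19. For the labelled head and thorax, neuron genes averaged between 10.14 and 10.73 and muscle genes between 12.33 and 12.95 on each array, and elav, a defining neuron marker, lay between 10.36 and 11.01. On the restricted against the normal diet limma called all 6 measured neuron genes lower, 3 of 7 muscle genes lower, 5 of 10 midgut genes higher and 1 lower, 3 of 7 fat body genes higher and 1 lower, 2 of 5 spermatheca and female tract genes lower, and 0 of 7 germline genes, 3 of which had an unadjusted p under 0.05. The shares over all features were 5.27% higher and 12.9% lower. The part of tissue makeup in the values of the peptide genes and of the other immune genes below was not tested.

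The measures of RNA quality on these 2 arrays lay within the range of the other arrays. The difference between the 3′ and the 5′ probe sets of GAPDH was 0.69 on normal-diet replicate 2 and 0.74 on restricted-diet replicate 1. It lay within 0.57 to 0.78 over the 9 arrays. That of actin was 1.50 and 1.37, within 1.06 to 1.55, and that of eIF4A 2.88 and 2.69, within 2.57 to 2.89. On normal-diet replicate 2 actin and eIF4A thus lay near the top of their ranges. Between 9295 and 9405 probe sets reached log2 4 on each array. Correlations within a diet ran from 0.994 to 0.998, and the lowest correlation of any pair, 0.985, lay between these 2 arrays.

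Whether the peptide genes vary together over the arrays was asked for their 6 pairs, each with Pearson's r, Spearman's rho and two-sided exact permutation tests adjusted over the 6. Mtk and DptB were correlated, with r = 0.859 over the 9 arrays (exact permutation p = 0.00197, adjusted p = 0.0118) and rho = 0.767 (exact permutation p = 0.0214, adjusted p = 0.128). For these adjusted p the pairs of Drs were cut to 7 arrays, as described below. With all 9 arrays for every pair, as planned, the adjusted exact permutation p was 0.00593 for r and 0.0642 for rho. Without the 2 arrays farthest from the median of Mtk, normal-diet replicate 2 and resveratrol replicate 1, r was 0.896 (exact permutation p = 0.00615, adjusted p = 0.0369). There rho was 0.857 (exact permutation p = 0.0238), and this setting was planned. With the diet means taken off, r was 0.855. The 2 arrays highest for DptB are those that stand apart for Drs. Over the other 7 arrays r was 0.705 (exact permutation p = 0.0873) and rho 0.5 (exact permutation p = 0.267), so that the call was not kept without both. This setting was added after seeing the data. Leaving out 1 array gave r from 0.802 to 0.916. With the pairs of Drs again cut, the adjusted exact permutation p was 0.0955 without normal-diet replicate 2 and 0.0516 without normal-diet replicate 1.

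The correlations of Def with the other genes did not pass. Its r was 0.116 with Mtk (adjusted exact permutation p = 0.755) and 0.508 with DptB (adjusted exact permutation p = 0.493), and with rho the values were 0.117 and 0.35. With all 9 arrays for every pair, the adjusted exact permutation p of r was 0.755 and 0.197. Because 2 arrays stand apart for Drs, its pairs entered the adjusted tests over the other 7 arrays. That cut was made after its values were seen, and the planned tests used all 9 arrays. Over all 9 arrays r was 0.741 with Mtk, 0.897 with DptB and 0.619 with Def (adjusted exact permutation p = 0.00593, 0.00593 and 0.0823). There rho was 0.717, 0.817 and 0.367 (adjusted exact permutation p = 0.0737, 0.0642 and 0.43). These are given as a description, since r rests on those 2 arrays, and the call for Mtk with DptB was not kept without both. Over the 7, r was 0.496 with Mtk, 0.423 with DptB and -0.161 with Def, with adjusted exact permutation p of 0.529, 0.546 and 0.755, and rho was 0.393, 0.607 and 0.0. Once those arrays were set aside, no joint variation of Drs with another member could be shown with 7 arrays. The cut was made on Drs itself and leaves it only 10.71 to 11.29. These 7 arrays therefore cannot decide whether Drs varies with the others.

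**Figure D4:**
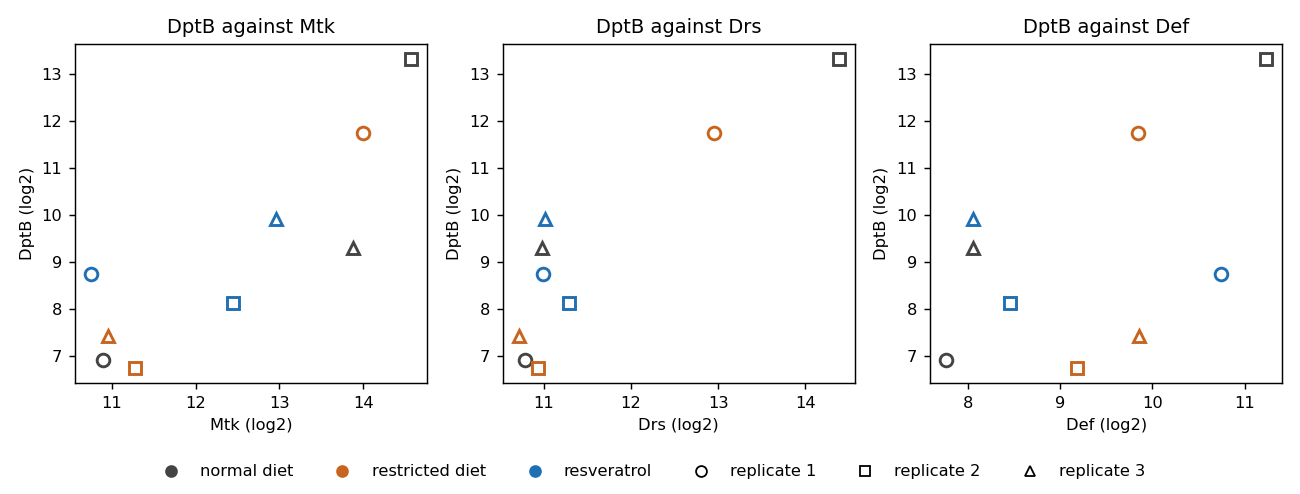
DptB (log2, vertical axes) against Mtk, Drs and Def (log2, horizontal axes); each point is an array, with colour for diet and symbol for replicate. DptB and Mtk have r = 0.859 over all 9 arrays and 0.705 without the 2 highest, and in the panel for Drs 7 arrays lie between 10.71 and 11.29 and 2 lie apart.

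The genes whose profiles were most like each member were sought among 1118 single-gene features spanning at least 1 log2 unit, by Pearson's r over the 9 arrays, given as a description. For Mtk these were PGRP-SB1 (0.90), DptB (0.86), Drs (0.74) and Spn88Eb (0.70), and for DptB they were PGRP-SB1 (0.92), Drs (0.90), Mtk (0.86) and CG15784 (0.75). PGRP-SB1 is a secreted peptidoglycan recognition protein that cleaves peptidoglycan. It read 11.41, 13.03 and 12.38 on the normal diet, 12.52, 11.71 and 11.66 on the restricted diet and 11.67, 11.55 and 12.47 with resveratrol, so that its 2 highest arrays were those of DptB. Drs had DptB (0.90), CG15784 (0.86), CG4757 (0.85) and CG4269 (0.84), values that rest on the 2 arrays where Drs stood apart. No other member was among the 4 most like Def, which were CG10154 (0.91), CG10725 (0.90), CG8303 (0.84) and twe (0.83), a phosphatase of meiosis. Several of these profiles share the high normal-diet replicate 2, where CG4269 read 10.60 against 7.63 to 8.80 elsewhere. Among the genes most like Def, twe read only 2.86 to 4.50 over the 9 arrays, near the floor of the values. CG10154 read as low as 3.75, on normal-diet replicate 3.

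Some other immune peptide genes were also highest on normal-diet replicate 2, though too low elsewhere to be tested. Of 17 further peptide genes listed, 2 were measured, 7 lay below the filter and the other 8 are not analysed here. Of those below the filter, Drsl1, Drsl3, Drsl6 and Anp read at most 2.87 on every array. Drsl2 read 4.65 on normal-diet replicate 2 and 3.79 to 3.82 elsewhere. The following 3 genes were picked after their values were seen, AttD and CecB from this list and edin from that of Bomanins and other induced peptides. AttD, an attacin, read 11.02 on normal-diet replicate 2 and 2.16 to 4.85 on the other 8 arrays. CecB, a cecropin, read 7.74 there and 2.78 to 4.94 elsewhere. edin, a peptide gene induced by infection, read 7.50 there and 2.22 to 2.51 elsewhere. None of these stood apart on restricted-diet replicate 1, where AttD read 2.30, CecB 3.42 and edin 2.32.

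The 2 measured peptide genes, Drsl4 and Drsl5, are relatives of Drs, and neither was highest on normal-diet replicate 2. Drsl5 fell from 14.07 ± 0.08 on the normal diet to 13.82 ± 0.06 on the restricted diet (SD, n = 3), by 0.26 (limma adjusted p = 0.0422), a call that held in 6 of 18 alternative settings and was lost when any 1 array other than normal-diet replicate 3 or resveratrol replicate 1 was left out (limma adjusted p up to 0.127). Drsl4 read 13.36 ± 0.13 and 13.56 ± 0.07, a difference of 0.20 (limma adjusted p = 0.169). Neither passed in the other 2 comparisons. The plot of array profiles sets these genes beside the members.

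**Figure D5:**
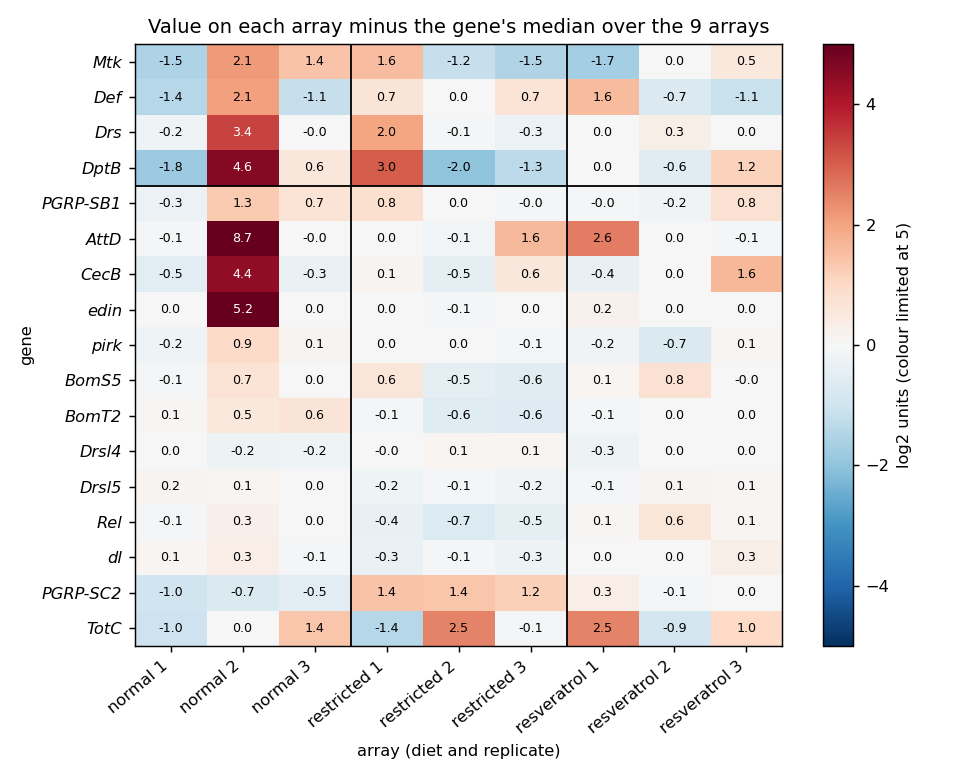
Value on each array (horizontal axis) minus the gene's median over the 9 arrays (log2 units, colour and printed numbers) for the 4 peptide genes, above the line, and other immune genes (vertical axis). Normal-diet replicate 2 is high for the 4 members, AttD, CecB and edin, and PGRP-SC2 follows the restricted diet instead.

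Bomanins are short secreted peptides induced through Toll. Of 22 listed Bomanins and other induced peptides 9 were measured. On the restricted diet against the normal diet 12.9% of all features fell and 5.27% rose. BomT2 alone passed on the restricted diet against the normal diet: it fell from 13.03 ± 0.30 to 12.18 ± 0.29 (SD, n = 3), by 0.86 (limma adjusted p = 0.0202). That call was lost without normal-diet replicate 2 (adjusted p = 0.0675) and with restricted-diet replicate 3 left out (adjusted p = 0.061), and the adjusted p ranged from 0.0145 to 0.0685 over 18 alternative settings. BomS6 had a difference of -0.38 (limma adjusted p = 0.0563), and the median of the 9 was -0.27 beside -0.05 over all features. BomS5, picked after its values were seen, read 12.19, 12.97 and 12.27 on the normal diet, 12.88, 11.80 and 11.69 on the restricted diet and 12.36, 13.05 and 12.26 with resveratrol. Its high arrays included normal-diet replicate 2 and restricted-diet replicate 1, but also resveratrol replicate 2.

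Of 25 listed genes of the Toll pathway 18 were measured, and 1 fell and 0 rose on the restricted diet against the normal diet, where 12.9% of all features fell and 5.27% rose, with a median of -0.09. Myd88, the adaptor that binds the Toll receptor, fell from 8.49 ± 0.06 to 8.19 ± 0.02 (SD, n = 3), by 0.30 (limma adjusted p = 0.0163), though not without normal-diet replicate 1 (adjusted p = 0.0579) or normal-diet replicate 2 (adjusted p = 0.0541), with a range of 0.0142 to 0.0579 over the alternative settings. The transcription factor dl had a difference of -0.34 (limma adjusted p = 0.104) and Gprk2, a kinase of the pathway, -0.42 (limma adjusted p = 0.102). Dif, the other Toll transcription factor, lay below the filter. Of the 18 genes, 9 were highest on normal-diet replicate 2, as were 17.6% of all features.

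For the Imd pathway 13 of 15 listed genes were measured, and again 1 fell and 0 rose on the restricted diet against the normal diet. Of all features 12.9% fell and 5.27% rose. The median of the 13 genes was -0.07. Tab2, an adaptor of the kinase Tak1, fell by 0.22 (limma adjusted p = 0.0479), which held in 4 of 18 alternative settings and was lost when any 1 of the 9 arrays was left out (limma adjusted p up to 0.139). Rel, the transcription factor that drives DptB, had means of 11.02 ± 0.17 for normal, 10.46 ± 0.16 for restricted diet and 11.21 ± 0.32 for resveratrol (SD, n = 3). Its difference was -0.56 for restricted minus normal (limma adjusted p = 0.0546) and -0.75 for restricted minus resveratrol (limma adjusted p = 0.0599), so neither passed. Diap2, a ubiquitin ligase of the pathway, had -0.16 (limma adjusted p = 0.0529) and IKKbeta, a kinase subunit, -0.15 (limma adjusted p = 0.0799).

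Among genes that restrain the Imd pathway, PGRP-SC2 read 8.10, 8.38 and 8.54 on the normal diet, 10.50, 10.48 and 10.28 on the restricted diet and 9.40, 9.02 and 9.08 with resveratrol, with no overlap between the 3 diets. PGRP-SC2, an enzyme that degrades peptidoglycan, rose from 8.34 ± 0.22 on the normal diet to 10.42 ± 0.12 on the restricted diet (SD, n = 3), 4.23-fold (limma adjusted p = 0.00126), and 3.89-fold to 4.53-fold over 18 alternative settings, all of which kept the call. With resveratrol it averaged 9.17 ± 0.21, a difference of 0.83 from the normal diet that did not pass (limma adjusted p = 0.0794). It was 2.38-fold higher on the restricted diet than with resveratrol (limma adjusted p = 0.0276), a call that was lost without restricted-diet replicate 1 (adjusted p = 0.0725) or 3 (adjusted p = 0.0812) and when resveratrol replicate 2 (adjusted p = 0.106) or 3 (adjusted p = 0.12) was left out, within a range of 0.0134 to 0.12 over the alternative settings. CYLD, a deubiquitinase, fell by 0.63 on the restricted diet against the normal diet (limma adjusted p = 0.00765), in all 18 settings. Of 10 measured of 12 listed negative regulators, 1 rose and 1 fell on the restricted diet against the normal diet, with a median of -0.19. Among all features 5.27% rose and 12.9% fell. nub, a repressor of peptide genes in the gut, had a difference of 0.74 (limma adjusted p = 0.0592) and trbd, another deubiquitinase, -0.36 (limma adjusted p = 0.0671). pirk, which is itself an Imd target, read 7.88 on normal-diet replicate 2 and 6.22 to 7.08 elsewhere.

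Among 19 listed stress and JAK-STAT targets 6 were measured, and 2 fell and 0 rose on the restricted diet against the normal diet. puc, a phosphatase induced by JNK signalling, fell by 0.42 (limma adjusted p = 0.0132), and vir-1, a virus-induced gene, fell by 0.72 (limma adjusted p = 0.0281). The call for vir-1 was lost when any 1 of normal-diet replicates 1 or 2 or of the restricted-diet replicates was left out, with adjusted p up to 0.0915 over the alternatives. TotC, a secreted stress peptide picked after its values were seen, also spanned several units within diets but peaked on other arrays. It read 9.79, 10.82 and 12.19 on the normal diet, 9.39, 13.29 and 10.70 on the restricted diet, and 13.29, 9.91 and 11.81 with resveratrol. Lysozymes, enzymes that digest bacterial walls, had 4 of 10 listed genes measured and 0 called in limma in any comparison. The smallest adjusted p in limma was 0.0643, for CG6429 at -0.31 for restricted minus normal, where 3 of the 4 had an unadjusted p under 0.05. Over these 7 immune lists 62 genes were measured. For restricted minus normal limma called 1 of them higher (1.61%, beside 5.27% of all features) and 7 lower (11.3%, beside 12.9%), and 24 (38.7%) had an unadjusted p under 0.05, beside 37.7% of all features. For resveratrol minus normal it called 0, beside 0.227%, and 7 (11.3%) had an unadjusted p under 0.05, beside 9.74%. For restricted minus resveratrol it called PGRP-SC2 alone, beside 2.54%, and 18 (29.0%) had an unadjusted p under 0.05, beside 25.2%.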

How the data were processed

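The authors deposited log2 probe set values for 9 arrays, made with GCRMA per the submitters' processing notes; GCRMA removes a sequence-dependent background, normalizes arrays together and summarises probes. The RNA was extracted with Trizol, cleaned on columns and labelled from 5 µg, per the labels' protocols. For the GCRMA version, the arrays normalized together and a genome build, nothing is given in the sources used here. Values ran from 2.12 to 16.39. Background removal widens folds near the floor, and the number of arrays limits the precision.

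Symbols came from the platform annotation, and 13543 of 13646 single-gene probe sets matched the gene table of assembly Release 6 plus ISO1 MT. The 183 controls were removed. Of several probe sets of a gene, the one with the highest mean stood for it. After the filter, 9401 probe sets gave 8822 features. All arrays were fitted in limma 3.58.1 (R 4.3.3) with a mean per diet, 6 residual and 1.81 prior degrees of freedom. Benjamini-Hochberg adjustment ran over all features of a comparison. The fit was tested on simulated data. Permutation tests used Python 3.11.15.

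The members and gene lists were chosen with earlier results of these data known. Named genes were the members, up to 4 measured genes per immune list and comparison with the smallest p, and the 4 genes most like each member; others are said to be picked after their values were seen. Alternatives covered normalization, filter, floor, probe set choice, variance model, replicate block, arrays fitted and leaving out each array.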

Additional observations from a re-analysis of the deposited data

How the results depend on the processing

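Under all 18 alternative settings limma called 0 of the 4 peptide genes in each comparison, and 0 of the 4 had an unadjusted p under 0.05. Adjusted p of the members ranged from 0.188 (Def) to 1 (Drs) for restricted minus normal, from 0.641 to 1 for resveratrol minus normal and from 0.374 to 1 for restricted minus resveratrol. No setting other than leaving out an array turned a member's direction. With 1 array left out, restricted minus normal ran from -2.15 to -0.31 for Mtk, from -0.017 to 1.72 for Def, from -1.23 to 0.65 for Drs and from -2.77 to 0.53 for DptB. Resveratrol minus normal ran from -2.17 to -0.33 for Mtk, from -0.76 to 1.18 for Def, from -1.59 to 0.21 for Drs and from -2.38 to 0.82 for DptB. Restricted minus resveratrol ran from -0.94 to 0.58 for Mtk, from 0.03 to 1.38 for Def, from -0.28 to 0.84 for Drs and from -1.85 to 0.66 for DptB. Pearson's r ran from -0.301 to 0.372 for Mtk with Def and from -0.418 to 0.092 for Def with Drs, each over fewer arrays. Replicate numbers did not pair the arrays: deviations of same-numbered arrays correlated between -0.328 and 0.399, and those of differently numbered arrays between -0.366 and 0.415. The higher values joined arrays across the diets in sets. Normal-diet replicate 1, restricted-diet replicate 2 and resveratrol replicate 3 correlated at 0.357 to 0.415. Normal-diet replicate 3, restricted-diet replicate 1 and resveratrol replicate 1 did so at 0.277 to 0.399. For normal-diet replicate 2, restricted-diet replicate 3 and resveratrol replicate 2 it was 0.102 to 0.297. Every other pair of arrays from different diets lay at 0.058 or below. Numbers are taken as names only, and a grouping of arrays other than by number was not tested. With the replicate block, which leaves the differences as they are, the adjusted p of Mtk for restricted minus normal was 0.59 (0.21 to 0.888 over all settings), and called features went from 1604 to 931, from 20 to 1 and from 224 to 0 in the 3 comparisons. Called features for restricted minus normal were 598 with no filter and 332 to 1671 with 1 array left out. For resveratrol minus normal they were 10 with no filter, 47 with trend and robust moderation, 4 with only the diets compared, and 2 to 9 with 1 array left out. For restricted minus resveratrol they were 36 after quantile normalization, 20 with centred arrays, 8 with no filter, 339 with trend and robust moderation, 1 with only the diets compared, and 0 to 290 with 1 array left out. The causes were not tested beyond the fewer arrays or features that a setting holds. With 3 arrays a diet and SDs of 1.37 to 2.50 within diets, even changes of several fold in the members could go undetected. Drs had the smallest SD, and its 95% interval for restricted minus normal still ran from -2.80 to 1.76.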
